A study of Homo sapiens with 2 samples.

Results

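The genes described here are 10 members of the matrix metalloproteinase (MMP) system, the proteinase genes MMP1, MMP2, MMP7, MMP8, MMP9, MMP14 and MMP19 and the inhibitor genes TIMP1, TIMP2 and TIMP3. They were chosen as every array probe whose single gene symbol in the platform annotation is on that list, which gave 13 probes of 47321 and 10 genes of 20046 named on the array. Expression was read on 2 Illumina arrays, from derivatives of the human monocytic leukaemia cell line THP-1. The shLY6E array came from THP-1 cells that stably express a short hairpin RNA (shRNA) against LY6E, and the shCtrl array from THP-1 cells that stably express a scrambled shRNA. Both derivatives grew under puromycin in the same medium, and the labels name no stimulus. The labels do not say whether a derivative is a clone or a pool. The members were selected on their shLY6E against shCtrl differences in these 2 arrays, so the values below are a description without a test.

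MMPs are zinc-dependent endopeptidases that are made as inactive proenzymes and, once activated, cut collagens, laminins and many soluble or cell-surface proteins. TIMPs bind the active site of MMPs and block it. In monocytes and macrophages, MMP9 is a gelatinase induced by inflammatory cytokines and bacterial products, and TIMP1, TIMP2 and TIMP3 set how much of the secreted activity is free.

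A difference is the log2 intensity in shLY6E minus that in shCtrl, after background correction and quantile normalization, and a fold is the same value on the linear scale. Probes with a detection p-value below 0.01 counted as detected, and the dimmest of them read 106 in shLY6E and 129 in shCtrl. With 1 array per group (n = 1) no difference had a replicate check. Different probes of the same gene gave differences with an SD of 0.28, over 2254 genes with several probes detected on both arrays, and this is the only spread at hand. LY6E, the targeted gene, read 253 in shLY6E and 1049 in shCtrl and was 3.67-fold lower. All 10 monocytic markers looked for on the array were detected on both arrays. Of 26 markers of fibroblasts, epithelium, endothelium, lymphocytes and mature neutrophils, 4 were detected in shLY6E (TEK, CD79A, FCGR3B and MMP25) and 2 in shCtrl (PDGFRB and FCGR3B), and COL1A1, COL3A1, EPCAM, CDH5, CD3E and LTF were not detected on either array. In bulk RNA, fewer cells with a transcript and less transcript per cell cannot be told apart.

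Of the 10 members, 4 were detected on at least 1 array. MMP9 was found in shLY6E cells and was at background in shCtrl cells, TIMP3 was lower in shLY6E, and TIMP1 and TIMP2 lay close to equal. The other 6 members, and 47.3% of all named genes, were not detected on either array. At a threshold of 2-fold, 1 of the 4 detected members was higher in shLY6E (2.27% of all 10565 detected genes were) and 0 were lower (2.55% of all). At 1.5-fold, 1 was higher and 1 lower, against 6.55% and 9.63% of all detected genes.

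**Figure D1:**
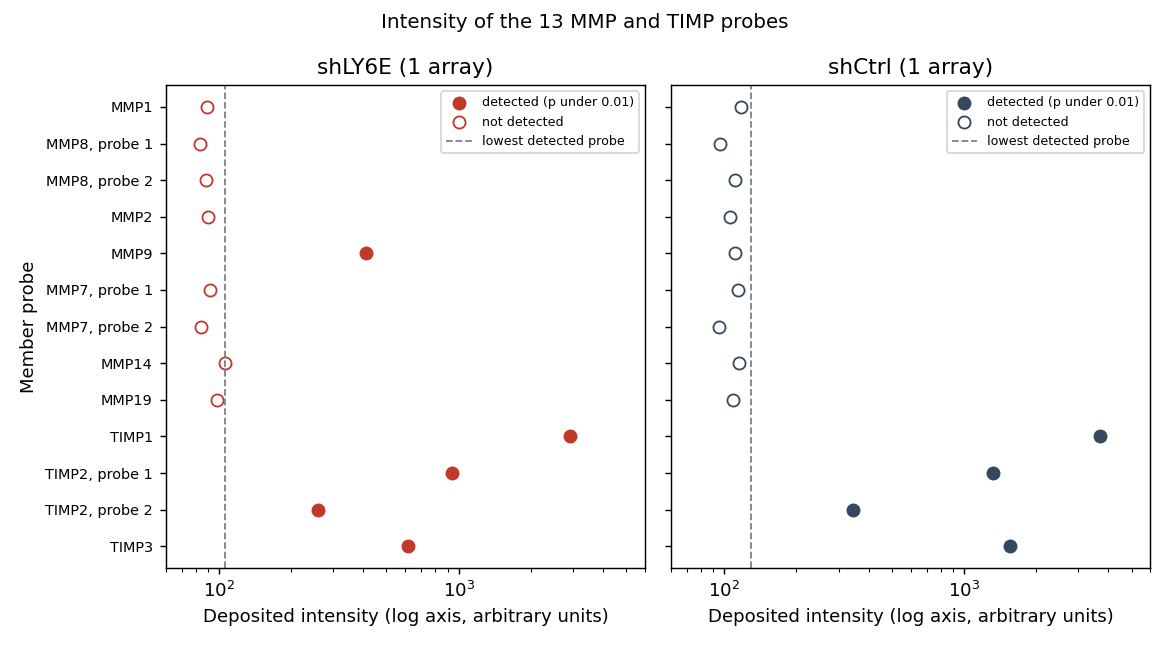
Deposited intensity (log axis) of the 13 member probes on the shLY6E array (left) and the shCtrl array (right); filled points were detected, open points were not, and the dashed line is the lowest intensity detected on that array. MMP9 lies at 409 in shLY6E and 111 in shCtrl, and the 8 undetected probes lie left of the line on both arrays.

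Among the gelatinases, which cleave denatured collagen and type IV collagen, MMP9 on chromosome 20 had a deposited intensity of 409 in shLY6E and 111 in shCtrl. The detection p-value was 0 in shLY6E and 0.327 in shCtrl, so the shCtrl value was within the spread of the negative controls. MMP9 was at least 12.5-fold higher in shLY6E, counted against the lowest normalized intensity detected in shCtrl, and the measured log2 intensities were 8.71 in shLY6E and 4.45 in shCtrl. Ranked by these bounds and differences, it stood 5 from the highest of the 10565 detected genes and 2 of the 571 genes detected in shLY6E only. The authors' deposited processed table gave it 409 in shLY6E and 2.07 in shCtrl. Without background correction MMP9 was at least 4.27-fold higher. A single probe reads MMP9, so no other probe checks its value. MMP2, the other gelatinase, was not detected, with 89.9 in shLY6E and 106 in shCtrl.

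The collagenases, which make the first cut in fibrillar collagen, were not detected. MMP1 read 89.5 in shLY6E and 117 in shCtrl, and the 2 probes of MMP8, the neutrophil collagenase, read 83.3 and 88.1 in shLY6E and 96.1 and 111 in shCtrl. MMP7, the small secreted proteinase matrilysin, read 91.5 and 84.4 in shLY6E and 114 and 95.3 in shCtrl on its 2 probes. MMP19, a secreted proteinase of the same family, read 98.2 in shLY6E and 109 in shCtrl. No fold is given for these genes, since both sides were below the detection limit.

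MMP14, a membrane-anchored proteinase that activates proMMP2, was the undetected member nearest to the limit. Its intensity was 106 in shLY6E, with a detection p-value of 0.013, and 116 in shCtrl, with a detection p-value of 0.144. With a detection p-value under 0.05 it counted as detected in shLY6E only and was at least 0.25 higher on the log2 scale, or 0.43 as measured.

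MMP1, MMP7 and MMP8 belong to a cluster of 9 MMP genes on chromosome 11 that also holds MMP3, MMP10, MMP12, MMP13, MMP20 and MMP27. None (0) of the 13 probes of this cluster was detected on either array. Most probes were not: of all 47321 probes, 34.6% were detected in shLY6E and 34.4% in shCtrl. MMP9, MMP2, MMP14 and MMP19 lie outside it, on chromosomes 20, 16, 14 and 12.

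**Figure D2:**
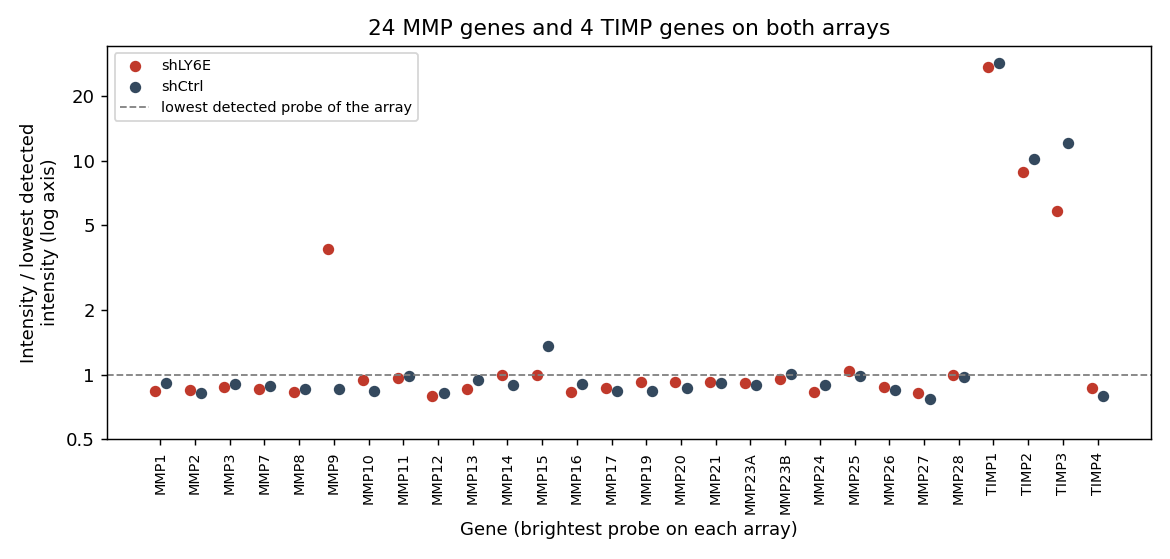
Deposited intensity of the brightest probe of each of 24 MMP genes and 4 TIMP genes, divided by the lowest intensity detected on the same array (log axis), for shLY6E and shCtrl. MMP9 in shLY6E, MMP15 in shCtrl and TIMP1, TIMP2 and TIMP3 on both arrays stand clear of the dashed line at 1, and the remaining MMP genes and TIMP4 lie close to it or below it.

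The remaining family, 17 MMP genes and TIMP4 read by 28 probes, held 3 detected genes, each on a single array. The other 15 genes, and 47.3% of all named genes, were detected on neither array. MMP15, a membrane-type proteinase, read 106 in shLY6E, with a detection p-value of 0.0143, and 176 in shCtrl, with a detection p-value of 0, and was at least 2.17-fold lower in shLY6E. MMP25, a GPI-anchored proteinase known from neutrophils, read 110.3 in shLY6E and 128 in shCtrl and was at least 1.15-fold higher. MMP23B read 100.2 in shLY6E and 131 in shCtrl and was at least 1.05-fold lower, and its other probe was not detected. The second MMP25 probe was not detected on either array. The bound of MMP15 fell short of 2-fold without background correction (-0.41), with an offset of 50 (-0.66) and with scaling to the median of detected probes (-0.91).

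The inhibitors were read on both arrays by all 4 of their probes. TIMP1, which besides blocking active MMPs binds the proenzyme of MMP9, had deposited intensities of 2922 in shLY6E and 3698 in shCtrl. The arrays differ in overall brightness: the median detected probe read 200 in shLY6E and 274 in shCtrl. The median of all probes, most of them not detected, was 97.5 in shLY6E and 116 in shCtrl. After normalization the log2 intensities of TIMP1 were 11.71 in shLY6E and 11.61 in shCtrl, a difference of 0.10. TIMP2, which blocks MMPs and also takes part in the activation of proMMP2 by MMP14, read 943 in shLY6E and 1316 in shCtrl on its brighter probe, and 260.4 in shLY6E and 344 in shCtrl on the other. These gave differences of 0.04 and 0.12. The differences of TIMP1 and TIMP2 were below the SD between probes, and both turned negative, to -0.23 and -0.39, when the arrays were scaled to a common median of all probes. That setting moved the median of all detected genes to -0.42, and relative to it TIMP1 and TIMP2 stood at 0.19 and 0.03.

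TIMP3 binds to the extracellular matrix and, unlike TIMP1 and TIMP2, is a known inhibitor of ADAM17 and of the aggrecanases. Its probe read 616 in shLY6E and 1554 in shCtrl. After normalization the log2 intensities were 9.39 in shLY6E and 10.26 in shCtrl. TIMP3 was thus 1.83-fold lower in shLY6E, a difference of -0.87, and 3.88% of the 9364 genes detected on both arrays had a lower one. In the authors' deposited processed table it stood at 684 in shLY6E and 1271 in shCtrl. A single probe reads TIMP3, as with MMP9 and TIMP1, so no other probe checks the value. Its difference passed 2-fold, at -1.32, under the same scaling, and relative to the median of all detected genes it was then -0.91.

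The RefSeq promoter table holds windows for 5 of the 10 members, MMP7, MMP8, MMP14, TIMP1 and TIMP3. The windows of TIMP1 and TIMP3, the inhibitor that lay near 0 and the inhibitor that was lower, are shown as the 250 bases before the annotated start of each gene (RefSeq, GRCh38.p14, plus strand), with matches to the motifs searched in capitals.
TIMP1, chrX:47582186-47582435: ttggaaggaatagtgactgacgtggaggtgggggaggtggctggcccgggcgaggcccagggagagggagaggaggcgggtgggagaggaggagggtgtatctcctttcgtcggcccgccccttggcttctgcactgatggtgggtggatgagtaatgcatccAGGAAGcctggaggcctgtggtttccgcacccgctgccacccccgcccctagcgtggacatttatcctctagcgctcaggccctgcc
TIMP3, chr22:32801455-32801704: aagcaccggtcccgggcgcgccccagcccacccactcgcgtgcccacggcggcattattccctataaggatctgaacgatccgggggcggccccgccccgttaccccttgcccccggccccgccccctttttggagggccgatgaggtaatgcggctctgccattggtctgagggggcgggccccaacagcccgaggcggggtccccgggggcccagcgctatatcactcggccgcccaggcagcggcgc
The motifs were AP-1 (TGANTCA), the ETS core (AGGAAG) and the NF-kB decamer, on both strands, and the TATA box (TATAAA), on the strand of the gene, with no overlap between matches. TIMP1 held 1 ETS match, 87 to 82 bases before the start, and TIMP3 held no match (0) to any of the 4 motifs. In all 35116 windows of this length, AP-1 was found in 6.57%, ETS in 28.7%, NF-kB in 9.96% and TATA in 6.8%. The TIMP1 window was 64.8% G or C and the TIMP3 window 72.4%, against a median of 58.0% over all windows. Of the undetected members, MMP7 held 1 AP-1, 2 ETS and 1 TATA match, MMP8 held 1 TATA match, and MMP14 held none (0). These are matches of letters in a window and say nothing of what binds there.

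The genes around MMP9 and TIMP3 stood closer to 0, which was likely beforehand, since both members had large differences among all detected genes. Neighbours were taken in equal number from each side, in gene order. Of the 10 detected neighbours of MMP9, 0 were at least 2-fold higher or lower. Their median was -0.11, and they ran from -0.71 for PLTP to 0.99 for CD40, a receptor gene induced by inflammatory signals. The 10 detected neighbours of TIMP3 ran from -0.41 for MCM5 to 0.45 for HMOX1, with a median of 0.0028. SYN3, the gene in whose intron TIMP3 lies on the opposite strand, was detected in shCtrl only and was at least 0.25 lower on the log2 scale. Chromosome 10 held 324 genes detected on both arrays with a median of -0.80, and 0 of the 10 members lie on it. The median was 0.02 on chromosome 20 and -0.10 on chromosome 22.

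**Figure D3:**
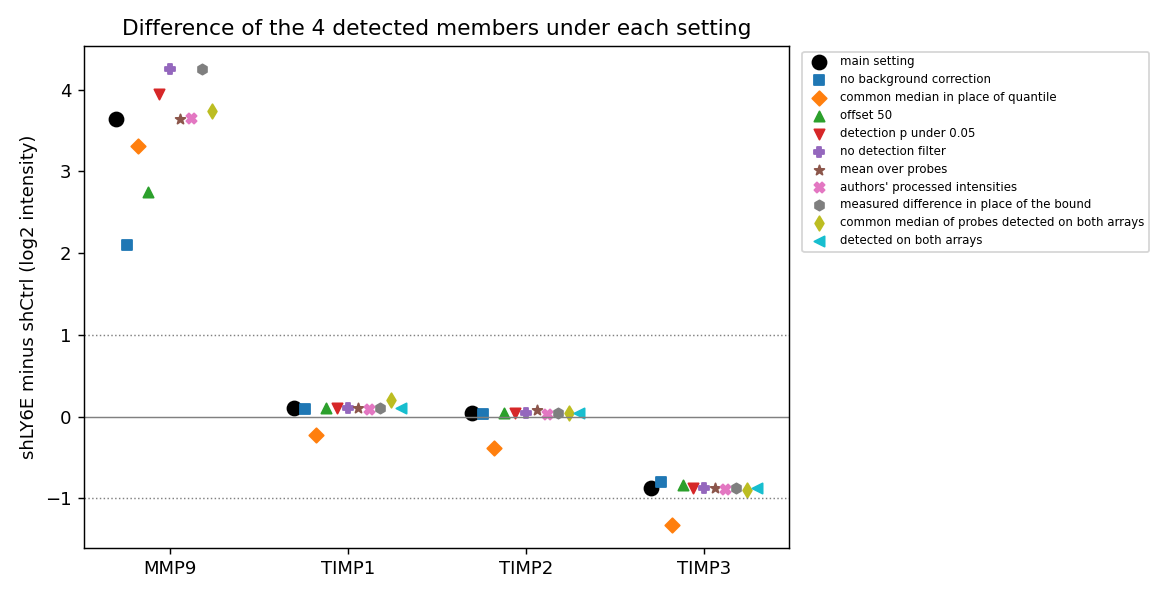
Difference between shLY6E and shCtrl (log2 intensity) of the 4 detected members under the main setting (black) and 10 alternatives; dotted lines mark 2-fold, and MMP9 is a bound except without a detection filter or with measured differences. MMP9 lies between 2.10 and 4.26 and TIMP3 between -1.32 and -0.79, while TIMP1 and TIMP2 lie near 0 apart from scaling to a common median of all probes.

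Related genes were described through 8 lists. The lists were chosen with earlier results of these data known, so their counts and medians are a description without a test. Of all 10565 detected genes, 2.27% were at least 2-fold higher in shLY6E and 2.55% at least 2-fold lower. Among activators of proMMPs, 8 of 16 genes on the array were detected and 0 were at least 2-fold apart, with a median of 0.08 against -0.04 for all detected genes. PLAUR, the urokinase receptor, which focuses plasmin formation at the cell surface, read 696 in shLY6E and 587 in shCtrl and was 1.86-fold higher, and its other probes gave 0.69 and 1.15. FURIN, a proprotein convertase that activates membrane-type MMPs, was 1.35-fold higher, but stood at -0.03 when scaled to the common median of all probes. PLAU, urokinase itself, stood at -0.35, and it lies on chromosome 10. TPSAB1, a tryptase gene with a near-identical copy that its probe may also read, was above the limit in shLY6E alone and at least 1.56-fold higher. It read 121 in shLY6E and 120 in shCtrl, and its bound was 0.21 on the log2 scale without background correction. PCSK5, at 108 in shLY6E and 126 in shCtrl, was at least 1.08-fold higher. Its bound was 0.033 without background correction and 0.0 when scaled to the common median of all probes.

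Among other inhibitors and partners of MMPs, 8 of 20 were detected, 0 were at least 2-fold apart and the median was 0.09. CD44, a hyaluronan receptor that docks MMP9 at the cell surface, read 1787 in shLY6E and 1565 in shCtrl and was 1.69-fold higher, with 0.77 and 1.21 from its other probes. ITGAV stood at 0.38 (-0.07 when scaled to the common median of all probes) and SPOCK1 at 0.31 (0.05 with that scaling). BSG, an inducer of MMP synthesis in neighbouring cells, stood at -0.25, and ITGA2 was at least 0.33 lower. SPOCK1, at 119 in shLY6E and 137 in shCtrl, stood at 0.11 without background correction. The bound of ITGA2, at 106 in shLY6E and 139 in shCtrl, was then -0.10. For ADAM and ADAMTS proteinases, 11 of 22 were detected, with a median of 0.0027. At 2-fold, 0 were higher (2.27% of all detected genes were) and 1 was lower (2.55% of all). That gene was ADAMTS1, an aggrecanase, at 106 in shLY6E and 175 in shCtrl, which was at least 2.15-fold lower and, like MMP15, short of 2-fold without background correction (-0.41). ADAM9, a membrane sheddase, was 1.92-fold higher, and ADAMDEC1, a secreted proteinase of macrophages, at least 1.83-fold higher. Without background correction ADAM9 and ADAMDEC1 stood at 0.41 and 0.31 on the log2 scale, against 0.94 and 0.87 with it. ADAM17, the sheddase of TNF that TIMP3 inhibits, was 1.35-fold higher (-0.02 on the log2 scale when scaled to the common median of all probes). ADAM15 was 1.55-fold lower on its brightest probe, but its other probes gave -0.53, 0.44 and -0.24.

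Of 14 detected proteases and glycosaminoglycan-degrading enzymes of leukocytes, 2 were at least 2-fold higher (2.27% of all detected genes were) and 0 lower (2.55% of all). The median of this list was -0.12. CTSH, the lysosomal protease cathepsin H, read 1643 in shLY6E and 843 in shCtrl and was 3.06-fold higher, with 1.63 on the log2 scale from its other probe, and CTSZ was 2.01-fold higher, or 0.73 on the log2 scale without background correction. HYAL3 was 1.74-fold lower and the granule protease gene PRTN3 1.61-fold lower, while HPSE, heparanase, gave -0.53 and 0.42 on its 2 probes. Among matrix proteins that MMPs cut, 15 of 31 were detected, with a median of -0.04. At 2-fold, 3 were higher and 1 lower, beside the same 2.27% and 2.55% of all detected genes. NID1, a basement membrane linker, read 778 in shLY6E and 587 in shCtrl and was 2.11-fold higher, but short of 2-fold without background correction (0.94) and when scaled to the common median of all probes (0.62). COL6A1 was 1.74-fold higher, SPP1 and VCAN were 13.9-fold and 7.95-fold higher, and LAMA5 was 5.17-fold lower. Without background correction SPP1, VCAN and LAMA5 stood at 2.65, 1.73 and -1.46 on the log2 scale, against 3.80, 2.99 and -2.37 with it.

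The cytokine list held cytokines, growth factors and related proteins, such as the binding protein IGFBP3, that MMPs release or trim. Of its 10 detected genes, 5 were at least 2-fold higher (2.27% of all detected genes were) and 0 lower (2.55% of all). The median of the detected genes was 0.87, and 0.34 without background correction. Without a detection filter it was -0.038, but over all 20 genes of the list on the array, undetected ones included. IL1B read 498 in shLY6E and 185 in shCtrl and was 6.66-fold higher. CXCL8, a known substrate of MMP9, was 19.9-fold higher, TNF 8.74-fold, IGFBP3 8.73-fold, and CXCL1, which was not detected in shCtrl, at least 2.05-fold (0.38 on the log2 scale without background correction). Without background correction CXCL8, IGFBP3 and IL1B stood at 3.26, 1.85 and 1.90 on the log2 scale, against 4.32, 3.13 and 2.73 with it. Among inducers and transcription factors of MMP genes, 26 of 27 were detected, with a median of 0.25. At 2-fold, 4 were higher and 0 lower, beside the same 2.27% and 2.55% of all detected genes. JUN, a subunit of AP-1, read 422 in shLY6E and 257 in shCtrl and was 3.13-fold higher. RELB was 3.88-fold higher and NFKB1, which encodes the p50 subunit of NF-kB, 2.45-fold. NFKB2 was 1.98-fold higher, but stood at 0.58 on the log2 scale without background correction and 0.57 when scaled to the common median of all probes. Like PLAU, NFKB2 lies on chromosome 10, and whether that place bears on either value was not tested. PPARG was 2.54-fold higher. PPARG was short of 2-fold without background correction (0.89) and both PPARG (0.90) and NFKB1 (0.91) were when scaled to the common median of all probes. A second PPARG probe, detected in shLY6E only, was at least 0.81 higher on the log2 scale after quantile normalization. Whether any of these genes has a part in the levels of MMP9 or TIMP3 was not tested.

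**Figure D4:**
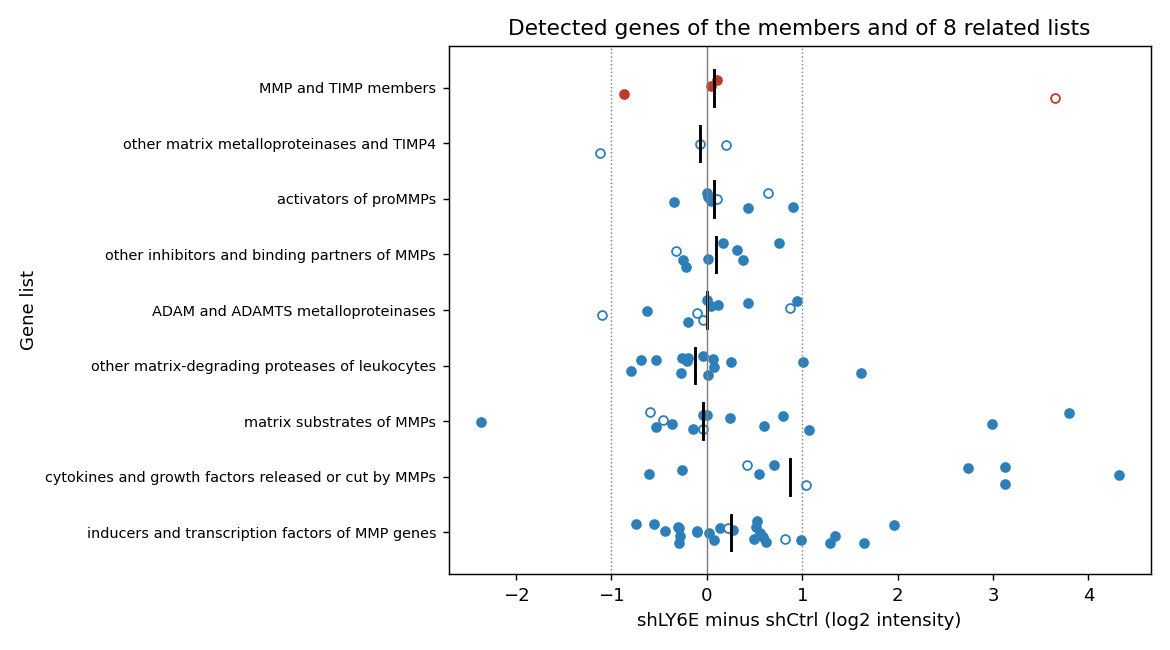
Difference between shLY6E and shCtrl (log2 intensity) of each detected gene, by list; open points are bounds, black bars are medians and dotted lines mark 2-fold, with vertical scatter within a row for legibility only. MMP9 stands at 3.65 and TIMP3 at -0.87 among the members, and the cytokine list has a median of 0.87 over its detected genes. Without a detection filter, the median over all genes of that list on the array was -0.038.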

How the data were processed

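Deposited values came in 2 tables. Per the file headers, the unnormalized one holds each probe's intensity and detection p-value on each array, and the authors' processed table gave background-subtracted intensities on a common distribution, as judged from the values (median 6.14 on both arrays). How the authors subtracted background and normalized is not stated in the labels or file headers.

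Intensities were corrected with the normexp model, the background being estimated through the detection p-values, with an offset of 16, then quantile-normalized (limma 3.58.1, R 4.3.3) and summarised in Python 3.11.15. The offset shrinks differences of dim genes. The detected probe with the highest mean stood for a gene. A gene detected on 1 array only has a bound against the lowest normalized intensity detected on the other array, or its own value there if higher. Gene names came from the platform annotation (30113 probes with 1 symbol, 8 with several, 17200 unlisted), and chromosomes from a RefSeq table of GRCh38.p14. The normalization was tested on simulated arrays. Members and lists were chosen with earlier results of these data known. Named were the members, the detected MMP genes, the 5 largest differences of each list, and neighbours chosen after their values were seen. The number of arrays, 2, limits the precision.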

Additional observations from a re-analysis of the deposited data

How the results depend on the processing

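Besides the main setting, 8 alternatives were planned, and 2 (measured differences in place of bounds, and scaling to a common median of the probes detected on both arrays) were chosen after seeing the data. MMP9 was higher in shLY6E under each of the 9 alternatives that gave it a value, and TIMP3 was lower under all 10. These tallies were largely fixed by construction. A bound cannot change sign, and MMP9 is a bound in most settings. TIMP3 has a single probe detected on both arrays. Settings that change only the detection filter, the bound or the averaging of probes therefore return its main value of -0.87. Requiring detection on both arrays removes MMP9 by construction and left 0 members at least 2-fold higher. Scaling to a common median of all probes, most of which are at background, gave 1 member at least 2-fold lower (TIMP3) and a median of -0.31 over the detected members, against 0.07. With that scaling, 130 of all detected genes passed 2-fold upward and 909 downward (12.5% of both higher), against 240 and 269 (47.2% higher) in the main setting. The counts were 97 and 65 without background correction (59.9% higher) and 144 and 129 with offset 50; both shrink differences by construction. Scaling to a common median of all probes put the protease list at -0.42, the cytokine list at 0.59 and the transcription factor list at -0.046. The median of all detected genes was itself -0.42 with that scaling, against -0.04 in the main setting. The members' median of -0.31 stood beside the same -0.42. The cytokine list stood at 0.34 without background correction, 0.53 with offset 50 and 1.72 for genes on both arrays. It stood at -0.038 without a detection filter, a setting that also takes in the undetected genes of the list. With measured differences the cytokine list stood at 1.39 and the other MMP genes at -0.39. For the other shifts the cause was not tested. MMP genes near background are limited by signal: the median detected intensity was 200 in shLY6E and 274 in shCtrl, over a background of 91.8 and 108. Among 38 named genes of the related lists, 3 (ADAM17, FURIN and ITGAV) changed sign under a setting. Of the 17 that were at least 2-fold apart, 0 did. However, 7 of those 17 (MMP15, ADAMTS1, CTSZ, CXCL1, NFKB1, NID1 and PPARG) fell short of 2-fold under at least 1 setting. The sign counts were fixed in part, since bounds cannot change sign. Several settings also repeat the main value of a gene with 1 probe detected on both arrays. No paired analysis was possible because the study has a single array in each group.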
